A study of Mus musculus with 13 samples.

Results

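The nuclear receptors are a superfamily of transcription factors, most of which switch genes on or off when a small lipophilic ligand such as a steroid, thyroid hormone, retinoid, fatty acid, sterol or bile acid binds them. Members were taken by name from a list of 46 receptor genes, and 44 of them, each with 1 probe set that the platform annotation gives to that gene alone, were measured among 19938 named genes. Nr1h2 and Nr2e3 had no such probe set and were not analysed here. RNA came from livers of male wild-type C57BL/6N mice aged 5 to 6 months. The 6 STZ mice had received intraperitoneal streptozotocin, a compound toxic to insulin-producing beta cells, at 65 mg/kg on each of 5 days in a row from an age of 10 to 16 weeks. The 7 control mice had received citrate buffer as a mock injection, and the livers of both groups were taken 9 to 11 weeks after the injections. The series design text names a standard diet for the controls, and no blood glucose, feeding state or time of day of tissue collection is given in the sources used here.

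In hepatocytes, PPARalpha, the bile acid receptor FXR, the oxysterol receptor LXR and the xenobiotic receptors CAR and PXR bind DNA as pairs with an RXR partner and set the rates of fatty acid, bile acid, sterol and drug metabolism. HNF4alpha and LRH-1 maintain hepatocyte genes, while REV-ERB and ROR receptors belong to the circadian clock. Steroid receptors pair with themselves, and the glucocorticoid receptor is known in liver for driving gluconeogenic genes.

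The 13 arrays had medians within 0.09 of each other on the log2 scale. All 6 measured hepatocyte markers, which include the receptor Hnf4a, were bright, with control means between 11.75 and 13.67. By the test described in the next paragraph, which 9.12% of all genes passed, 1 of them was higher in STZ livers and 2 were lower. Of 10 Kupffer cell and macrophage markers, 4 were higher in STZ livers and none lower, and the mean signal of that list ran from 8.26 to 8.71 in controls and from 8.45 to 9.03 in STZ livers. Stellate cell markers were higher for 2 of 9 and lower for 1, sinusoidal endothelial markers higher for 1 of 8, bile duct (5 measured) and neutrophil (5 measured) markers passed in neither direction, and 1 marker each of T cells (4 measured), B cells (3 measured) and adipocytes (4 measured) was lower. The 3 measured pancreatic acinar markers had control means between 6.04 and 6.87, near the median gene at 6.65, and none passed. In whole liver, fewer cells of a type and less RNA per cell cannot be told apart, and the part of the marker differences in the receptor results was not tested.

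Of the 44 measured receptors, 6 were lower and 2 were higher in STZ livers at an adjusted p under 0.05 in limma, a linear model fitted over all named genes with Benjamini-Hochberg adjustment. That is 18.2% of the receptors, beside 9.12% of all genes (4.04% lower and 5.09% higher). The share over all genes is not matched for signal, and 32 of the 44 receptors lay above the median gene. When only the 9969 genes above the median were fitted, 1857 of them passed. In that fit 8 of the 32 receptors passed, 1 higher and 7 lower. The fatty acid receptors Pparg and Ppara fell most, followed by the mineralocorticoid receptor Nr3c2, the bile acid receptor Nr1h4, the orphan receptor Nr2c1 and the glucocorticoid receptor Nr3c1. The estrogen receptor Esr1 and the immediate early receptor Nr4a1 rose. No receptor that passed differed by 2-fold, a size reached by 139 genes in all, and the largest fold among them was 1.73. The median difference over the 44 receptors was -0.02 (log2, STZ minus control), beside -0.01 over all genes. The median absolute difference was 0.12, beside 0.07 over all genes, again not matched for signal. At an unadjusted p under 0.05 there were 16 receptors.

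**Figure D1:**
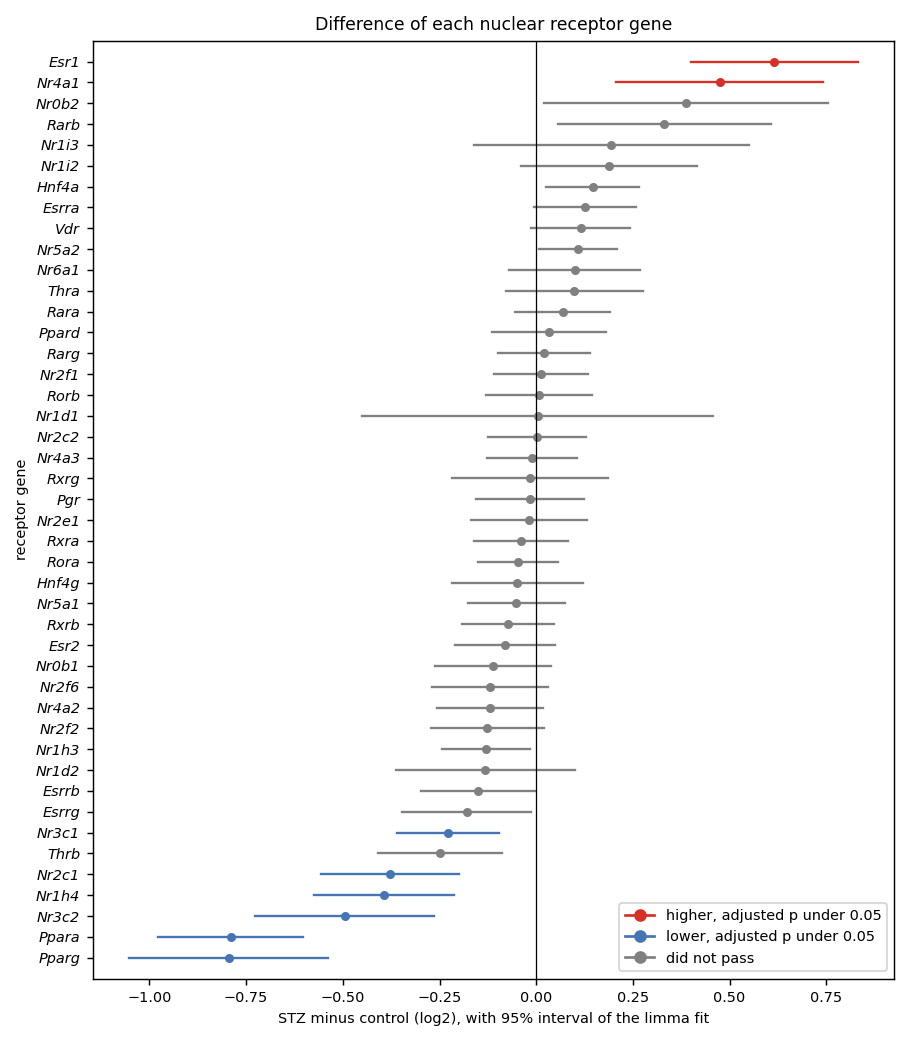
Difference of each of the 44 receptor genes (vertical axis) between STZ and control livers (horizontal axis, log2), with points for the estimate and bars for the 95% interval of the limma fit. Pparg and Ppara stand lowest at -0.79, Esr1 highest at 0.62, and most intervals of the remaining receptors include 0.

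Signals of different probe sets depend on their probes as well as on the RNA, so an order of receptors by signal is a description and not a ranking of transcript numbers. By mean log2 signal in the 7 controls, the brightest receptors were Hnf4a (11.75 ± 0.09, SD, n = 7, above 98.3% of named genes), Ppara (10.90 ± 0.17), Nr1d1 (10.69 ± 0.25), Rxra (10.56 ± 0.11) and Nr1i3 (10.30 ± 0.28). From Ppara to Nr1h4 (10.21 ± 0.13), each receptor differed from the next in this order by less than the larger of their SDs, and the order among them is not clear. In all, 10 receptors lay in the top 10% of named genes: these 6 and the LXR gene Nr1h3, the PXR gene Nr1i2, the REV-ERBbeta gene Nr1d2 and Pparg. Of these 10, 3 passed the test between STZ and control. Another 12 receptors lay below the median gene, where arrays compress differences and a low value cannot be read as absence. They included the estrogen receptor Esr2 (5.24 ± 0.10), the progesterone receptor Pgr (5.41 ± 0.12), the vitamin D receptor Vdr (5.05 ± 0.07) and Hnf4g, the dimmest at 4.40 ± 0.17. Only Nr4a1 among those 12 passed. For neither the bright nor the dim receptors was a share counted over genes of like signal.

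**Figure D2:**
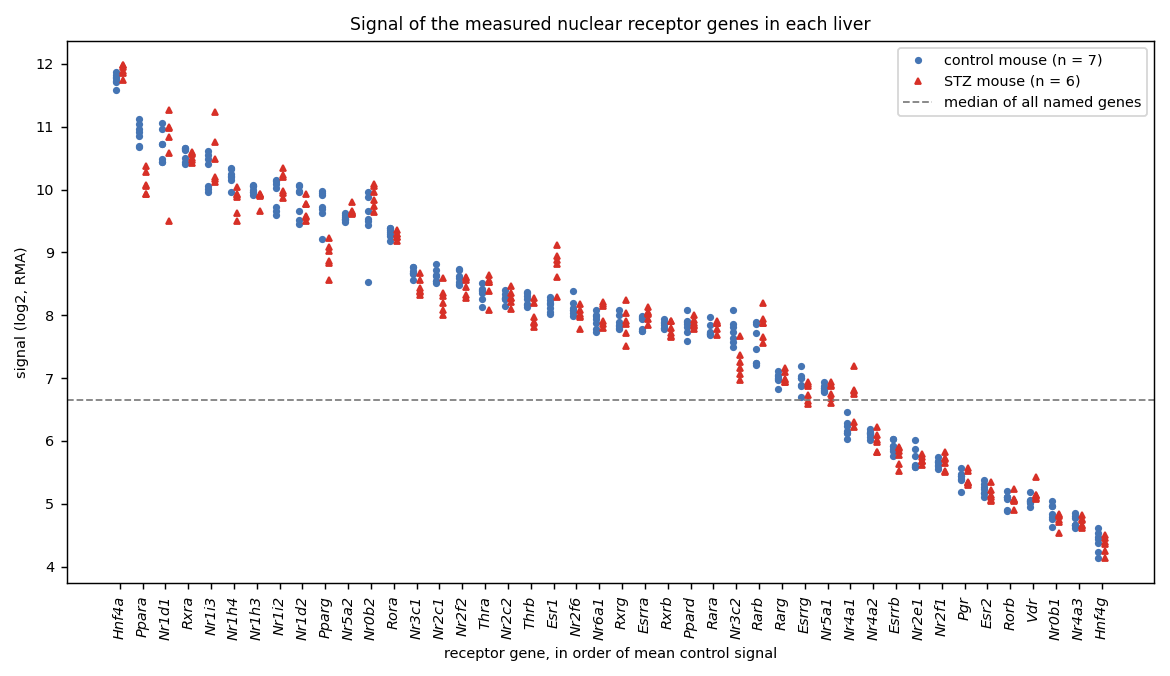
Log2 signal (vertical axis) of the 44 receptor genes in order of their mean control signal (horizontal axis), with a circle for each of 7 control mice and a triangle for each of 6 STZ mice. Hnf4a is brightest near 11.75 and Hnf4g dimmest near 4.40, and the groups separate fully for Ppara alone.

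The fatty acid receptors held the largest decreases. Ppara encodes PPARalpha, which induces fatty acid oxidation in fasting. Its log2 signal ranged over 10.67, 10.92 and 11.13 in controls (lowest, median and highest) and over 9.94, 10.06 and 10.37 in STZ livers. Every STZ mouse lay below every control, the only receptor without overlap, where 3.86% of all genes had none. Ppara fell by 0.79 ± 0.09 (difference ± SE of the fit), to 1.73-fold lower, with an adjusted p of 3.90e-05 in limma. The exact 2-sided permutation p was 0.000583, the smallest that 1716 splits of the arrays allow.

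Pparg, the receptor best known from fat cells, where it drives adipocyte differentiation, showed a decrease of the same size in these livers. Controls lay at 9.21, 9.73 and 9.98 (lowest, median, highest) and STZ livers at 8.56, 8.94 and 9.22. The groups overlapped only through control replicate 3 (9.21) and STZ replicate 6 (9.22). Pparg fell by 0.79 ± 0.12, with an adjusted p of 0.000514 in limma. The fat cell gene Adipoq had a control mean of 4.08, far under the median gene. The adipocyte marker list had a mean signal of 5.51 to 5.74 in controls and 5.43 to 5.67 in STZ livers, and the median difference of its 4 genes was 0.01. Retn fell by 0.42 ± 0.08, while Adipoq (0.18), Lep (0.06) and Plin1 (-0.03) did not pass. The third family member, Ppard, which is expressed in many tissues, was 7.84 ± 0.15 (SD, n = 7) in controls and 7.88 ± 0.08 (SD, n = 6) in STZ livers. Its difference of 0.03 had a 95% interval from -0.11 to 0.18.

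The bases upstream of Ppara, Pparg and Nr1h4, which fell, and of Nr4a1, which rose, are shown as examples among the receptors that passed. RefSeq promoters on GRCm38.p6 were found for 40 of the 44 receptors, and the 250 bases before each transcription start were searched on both strands for 5 motifs. These were AGGTCA, the core hexamer of most non-steroid nuclear receptors, AGAACA, that of the steroid receptors, the E-box CACGTG bound by clock factors, the GC box GGGCGG, and TGACG, the core of the cAMP response element. The share of all 32851 promoters with a match was 14.0% for AGGTCA, 16.1% for AGAACA, 6.02% for CACGTG, 32.7% for GGGCGG and 17.8% for TGACG. Sequences run 5′ to 3′ on the gene's strand and end at the base before the start, and capitals mark the matches in either direction, none of which overlap. The windows are chr15:85735526-85735775 (plus strand) for Ppara, chr6:115360894-115361143 and chr6:115362099-115362348 (plus strand) for 2 of the 3 starts of Pparg, chr10:89506659-89506908 (minus strand) for Nr1h4, and chr15:101266596-101266845 (plus strand) for Nr4a1. Which start these livers used was not measured.
Ppara: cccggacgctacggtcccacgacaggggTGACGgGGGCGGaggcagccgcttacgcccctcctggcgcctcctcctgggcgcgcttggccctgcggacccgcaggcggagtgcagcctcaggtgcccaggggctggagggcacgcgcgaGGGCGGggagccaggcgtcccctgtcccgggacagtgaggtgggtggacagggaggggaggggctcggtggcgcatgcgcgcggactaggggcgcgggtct
Pparg, start 1: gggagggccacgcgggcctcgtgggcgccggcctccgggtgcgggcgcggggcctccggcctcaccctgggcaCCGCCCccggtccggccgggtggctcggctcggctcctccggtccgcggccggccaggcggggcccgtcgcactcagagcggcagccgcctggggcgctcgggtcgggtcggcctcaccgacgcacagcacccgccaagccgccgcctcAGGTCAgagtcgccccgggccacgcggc
Pparg, start 2: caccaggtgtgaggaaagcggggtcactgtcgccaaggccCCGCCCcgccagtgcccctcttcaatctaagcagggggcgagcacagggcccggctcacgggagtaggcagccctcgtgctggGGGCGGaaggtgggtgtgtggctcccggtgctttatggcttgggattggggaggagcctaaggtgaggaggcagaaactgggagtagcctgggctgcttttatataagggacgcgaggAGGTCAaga
Nr1h4: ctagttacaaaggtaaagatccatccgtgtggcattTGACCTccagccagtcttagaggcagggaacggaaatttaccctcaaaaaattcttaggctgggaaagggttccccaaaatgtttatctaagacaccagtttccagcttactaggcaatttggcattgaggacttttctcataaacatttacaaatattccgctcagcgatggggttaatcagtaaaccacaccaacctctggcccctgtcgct
Nr4a1: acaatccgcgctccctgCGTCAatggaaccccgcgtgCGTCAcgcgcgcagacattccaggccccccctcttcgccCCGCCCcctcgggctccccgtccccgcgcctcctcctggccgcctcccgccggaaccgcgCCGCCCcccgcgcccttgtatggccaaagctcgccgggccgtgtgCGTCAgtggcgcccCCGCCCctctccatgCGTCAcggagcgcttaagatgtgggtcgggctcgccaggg
The Ppara window held 2 matches to GGGCGG and 1 to TGACG and none to AGGTCA. Both Pparg windows shown held AGGTCA close to the start, with its first base 28 and 9 bases before it, and Nr1h4 held it in the opposite direction (TGACCT) 214 bases before. Nr4a1 held 4 matches to TGACG, all in the opposite direction (CGTCA), a number reached by 45 of the 32851 windows (0.137%). The number 4 was taken from this window, so that share is a description and not a test. It is also not matched for base composition, and this window is 74.4% G or C. Of the windows not shown, start 3 of Pparg and both Esr1 windows held no match to any motif. Nr2c1 held 1 match to TGACG and Nr3c2 held 3 to GGGCGG. Nr3c1, which also passed, had no window among those searched. Among the 61 receptor windows, 18.0% held AGGTCA, 6.56% AGAACA, 8.20% CACGTG, 45.9% GGGCGG and 21.3% TGACG. A match describes the letters only, and no factor's binding was measured.

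Among the sterol and bile acid receptors, Nr1h4 fell. It encodes FXR, which bile acids activate and which restrains their synthesis. Controls lay at 9.96, 10.22 and 10.35 (lowest, median, highest) and STZ livers at 9.50, 9.89 and 10.04, and 5 of 6 STZ mice were below all controls. The decrease was 0.39 ± 0.09, with an adjusted p of 0.00722 in limma. Nr1h3, which encodes LXRalpha, the oxysterol sensor, was 10.00 ± 0.06 (SD, n = 7) in controls and 9.87 ± 0.11 (SD, n = 6) in STZ livers. Its difference of -0.13 (95% interval -0.24 to -0.02) did not pass in limma (adjusted p = 0.171). Nr0b2 encodes SHP, a repressor without a DNA-binding domain that FXR induces. Its signal ranged over 8.53, 9.54 and 9.96 in controls and over 9.64, 9.89 and 10.10 in STZ livers, with a difference of 0.39 ± 0.17 (adjusted p = 0.207 in limma). Control replicate 7 alone set the low end of the controls.

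The shared partners did not pass. Rxra, the main RXR of liver, lay at 10.41, 10.62 and 10.66 in controls and at 10.43, 10.53 and 10.59 in STZ livers. Its difference of -0.04 had a 95% interval from -0.16 to 0.08, and all 6 STZ mice lay within the control range. Rxrb (-0.07, interval -0.19 to 0.05) and Rxrg (-0.02, interval -0.22 to 0.19) did not pass either. Whether Rxra and its partners differed in their change was not tested.

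Steroid receptors went both ways. Esr1, the estrogen receptor alpha gene, lay at 8.02, 8.18 and 8.30 in controls and at 8.29, 8.84 and 9.11 in STZ livers. All STZ mice except replicate 5 were above every control, and replicate 5 (8.29) lay just under the highest control (8.30). Esr1 rose by 0.62 ± 0.10, or 1.53-fold, with an adjusted p of 0.00108 in limma. Nr3c2, the mineralocorticoid receptor, lay at 7.50, 7.74 and 8.08 in controls and at 6.97, 7.21 and 7.67 in STZ livers. It fell by 0.49 ± 0.11 (adjusted p = 0.00821), and again replicate 5 (7.67) was the single STZ mouse inside the control range. Nr3c1, the glucocorticoid receptor, lay at 8.56, 8.67 and 8.77 in controls and at 8.32, 8.41 and 8.68 in STZ livers. Its decrease of 0.23 ± 0.06 passed narrowly (adjusted p = 0.0298 in limma), and 2 STZ mice, replicates 1 and 5, were within the control range. The call was lost when any of 7 single arrays was left out (control replicates 1, 3 and 6 and STZ replicates 2, 3, 4 and 6), with adjusted p values of 0.0524 to 0.0751. Both dim steroid receptors, Esr2 (-0.08, interval -0.21 to 0.05) and Pgr (-0.02, interval -0.16 to 0.12), did not pass.

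Of the measured orphan receptors of the NR2 family, Nr2c1, which encodes the repressor TR2, was the only one that passed. It lay at 8.51, 8.63 and 8.82 in controls and at 7.999, 8.25 and 8.59 in STZ livers, with STZ replicate 5 (8.59) the only STZ mouse within the control range. Nr2c1 fell by 0.38 ± 0.08, with an adjusted p of 0.00886 in limma. Its closest relative on the list, Nr2c2, was 8.28 ± 0.08 (SD, n = 7) in controls and 8.28 ± 0.12 (SD, n = 6) in STZ livers, and its interval ran from -0.13 to 0.13. The COUP-TF genes Nr2f2 (-0.13), Nr2f6 (-0.12) and Nr2f1 (0.01) and the dim Nr2e1 (-0.02) did not pass.

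Of the NR4A genes, which respond within minutes to hormones such as glucagon and to stress, Nr4a1 rose. Controls lay at 6.03, 6.15 and 6.47 and STZ livers at 6.23, 6.76 and 7.19. The groups overlapped through STZ replicates 3 (6.23) and 5 (6.30), while the other 4 STZ mice were above all controls. The increase was 0.47 ± 0.13 (adjusted p = 0.0251 in limma) in a gene below the median signal. It was lost without control replicate 5 or 6 or STZ replicate 2, 4 or 6, where the highest adjusted p was 0.0582. Nr4a2 (-0.12) and Nr4a3 (-0.01) did not pass and were dim.

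**Figure D3:**
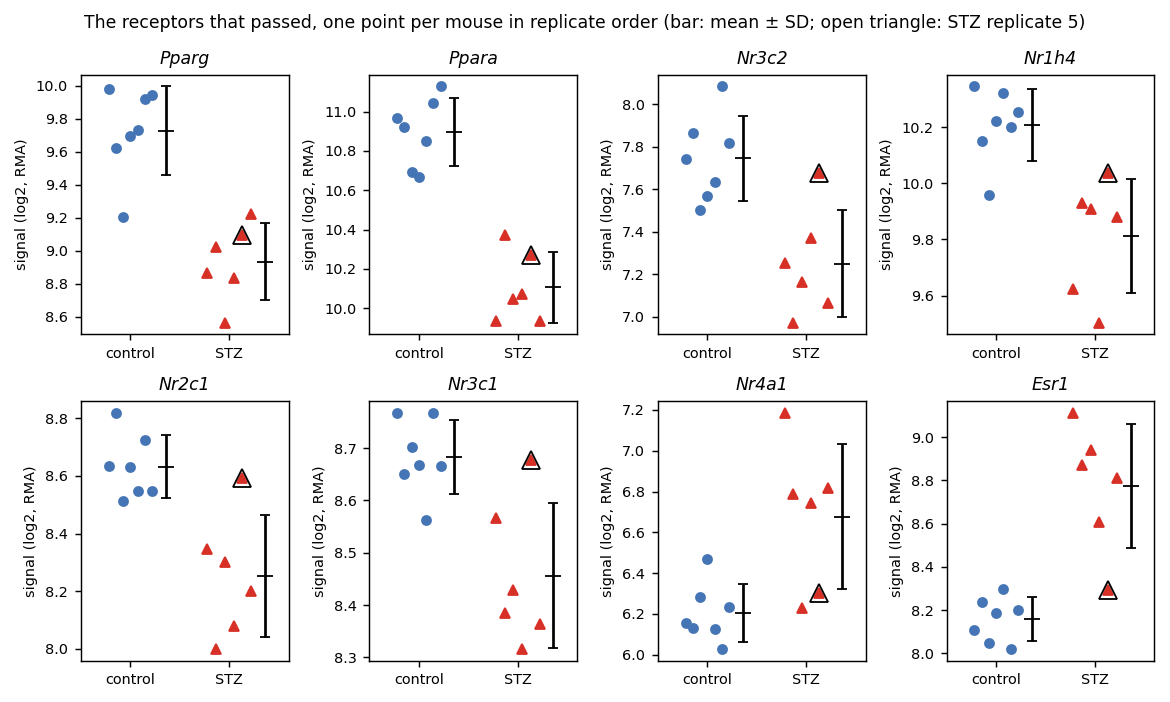
Log2 signal (vertical axes) of the 8 receptors that passed, with a circle for each of 7 control mice and a triangle for each of 6 STZ mice in replicate order, bars for mean ± SD, and an open triangle around STZ replicate 5. That mouse is the STZ liver nearest to the controls for 5 of the 8 receptors, among them Esr1 at 8.29 and Nr2c1 at 8.59.

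STZ replicate 5 was the STZ mouse nearest to the controls for Esr1, Nr3c2, Nr3c1, Nr2c1 and Nr1h4, while replicates 2, 6 and 3 were nearest for Ppara, Pparg and Nr4a1. Without replicate 5, all 8 calls held and Thrb was called too. Calls over all 19938 genes rose as well, from 1819 to 2168. How often replicate 5 was nearest to the controls over all called genes was not counted.

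Receptors for thyroid hormone and retinoic acid did not pass. Thrb, the thyroid hormone receptor beta of liver, came closest, with 8.14, 8.26 and 8.36 in controls and 7.82, 7.93 and 8.28 in STZ livers. Its difference of -0.25 ± 0.08 had an adjusted p of 0.0508 in limma, just outside the threshold, and passed without STZ replicate 3 (0.0278) or STZ replicate 5 (0.00865). Thra was 0.10 ± 0.08. Rarb, itself a retinoic acid target, ranged over 7.21, 7.46 and 7.90 in controls and over 7.56, 7.88 and 8.19 in STZ livers, with a difference of 0.33 ± 0.13 (adjusted p = 0.141 in limma). Rara (0.07) and Rarg (0.02) differed by less.

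Receptors of hepatocyte identity did not pass. Hnf4a, the brightest, lay at 11.58, 11.78 and 11.86 in controls and at 11.74, 11.92 and 11.97 in STZ livers, a difference of 0.15 ± 0.06 that did not pass (adjusted p = 0.138 in limma). Nr5a2, which encodes LRH-1, a regulator of bile acid synthesis, was 0.11 ± 0.05 (adjusted p = 0.196). The estrogen-related receptors, which act with PGC-1 coactivators on mitochondrial genes, were 0.13 ± 0.06 for Esrra, -0.15 ± 0.07 for Esrrb and -0.18 ± 0.08 for Esrrg, and none passed. Nr5a1 (-0.05), the steroidogenic factor of adrenal and gonad, the orphan Nr6a1 (0.10), the dim repressor Nr0b1 (-0.11) and the dim Hnf4g (-0.05) did not pass.

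None of the clock receptors passed. Nr1d1 encodes REV-ERBalpha, a repressor whose level swings over the day. It lay at 10.44, 10.72 and 11.06 in controls and at 9.51, 10.91 and 11.27 in STZ livers, so that the lowest and the highest mouse, STZ replicates 2 and 5, were both STZ mice. The difference was 0.00 with a 95% interval from -0.45 to 0.46, the widest of all receptors. Nr1d2 (REV-ERBbeta) lay at 9.45, 9.96 and 10.07 in controls and at 9.49, 9.67 and 9.93 in STZ livers, a difference of -0.13 ± 0.11. Rora, an activator at the same DNA sites, was -0.05 ± 0.05 and the dim Rorb 0.01 ± 0.06.

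Core clock genes differed widely between livers of the same group. Arntl, which peaks opposite to the Per genes, was between 5.97 and 6.25 in control replicates 1, 2, 6 and 7 but 8.18, 7.77 and 7.11 in control replicates 3, 4 and 5. In STZ livers it was 6.47 in replicate 2 and 6.96 in replicate 4, and between 7.91 and 8.37 in the other 4. A clock index was formed after these values were seen, as the mean log2 signal of Dbp, Per2 and Per3 minus that of Arntl and Clock. It lay between 1.80 and 1.97 in control replicates 1, 2, 6 and 7, at -1.15, -0.93 and 0.16 in control replicates 3, 4 and 5, and in STZ livers between -1.37 and 1.37. The index was below 0 in 4 of 6 STZ mice and in 2 of 7 controls, so the index and the group are partly confounded. The index comes from transcripts of the same livers, and clock phase and treatment cannot be told apart by a fit that holds both.

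In a limma fit with group and clock index together, 9.64% of all genes passed for the group and 1.09% for the slope on the index. For the slope, 3 of 44 receptors passed: Nr1i2 (0.17 ± 0.02 per unit of the index, adjusted p = 0.000531), Nr1d2 (0.16 ± 0.03, 0.00495) and Nr1i3 (0.23 ± 0.04, 0.0145). The slope of Ppara was 0.11 ± 0.03 and that of Nr1d1 -0.25 ± 0.07, and neither passed (adjusted p = 0.0856 and 0.116). Ppara within the controls was 10.69, 10.67 and 10.85 in the low-index replicates 3, 4 and 5 and between 10.92 and 11.13 in the others. STZ replicate 2, with an index of 1.37, had a Ppara signal of 10.37.

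For the group term of that fit, 9 receptors passed, 4 higher and 5 lower. Ppara (-0.68 ± 0.07, adjusted p = 2.80e-05), Pparg (-0.69 ± 0.12, 0.00149), Esr1 (0.62 ± 0.11, 0.00238), Nr2c1 (-0.39 ± 0.09), Nr1h4 (-0.38 ± 0.10), Nr3c2 (-0.42 ± 0.11) and Nr4a1 (0.47 ± 0.14) passed again, while Nr3c1 (-0.23 ± 0.07) did not (0.0545). The xenobiotic receptors joined them: Nr1i2, which encodes PXR, was higher by 0.37 ± 0.05 (adjusted p = 0.000423) and Nr1i3, which encodes CAR, by 0.44 ± 0.11 (0.0223). Without the index their differences were 0.19 ± 0.11 (adjusted p = 0.354) and 0.19 ± 0.17 (0.591). The Nr1i2 call held without any single array (adjusted p = 0.000266 to 0.00246), and the Nr1i3 call in 10 of 13 such fits. Nr1i3 did not pass without STZ replicate 2 (0.30, adjusted p = 0.118), STZ replicate 4 (0.0608) or control replicate 5 (0.0559). In the same fits Nr4a1 passed in 3 of 13. Nr3c2 was lost without control replicate 4, STZ replicate 4 or STZ replicate 2 (-0.27, adjusted p = 0.139), Nr1h4 without control replicate 4 or STZ replicate 4, and Nr2c1 without STZ replicate 2 or 4.

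The values behind this are visible mouse by mouse. Nr1i2 was 9.66, 9.59 and 9.72 in control replicates 3, 4 and 5 and between 10.03 and 10.14 in the other controls, while STZ replicates 3, 5 and 6, with low index values, were at 9.98, 9.95 and 9.87. Nr1i3 was 9.96, 10.05 and 10.01 in the same 3 controls, and its highest signal, 11.23, was that of STZ replicate 2. No other member of the vitamin D and xenobiotic branch was bright, as Vdr was 5.05 in controls with a difference of 0.11 ± 0.06.

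Of the 3 receptors whose slope on the clock index passed, only Nr1i3 had an E-box match in its window, and it was picked for that match. Its window, chr1:171213720-171213969 on the plus strand of GRCm38.p6, is shown with the single match in capitals.
Nr1i3: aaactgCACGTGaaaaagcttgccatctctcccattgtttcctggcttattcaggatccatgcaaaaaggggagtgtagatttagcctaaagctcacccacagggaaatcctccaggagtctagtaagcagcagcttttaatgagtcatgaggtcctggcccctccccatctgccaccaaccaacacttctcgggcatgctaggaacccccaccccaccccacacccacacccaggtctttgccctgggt
E-box matches were found in 5 of 61 receptor windows (8.20%) beside 6.02% of all windows, and in neither the Nr1i2 nor the Nr1d2 window.

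**Figure D4:**
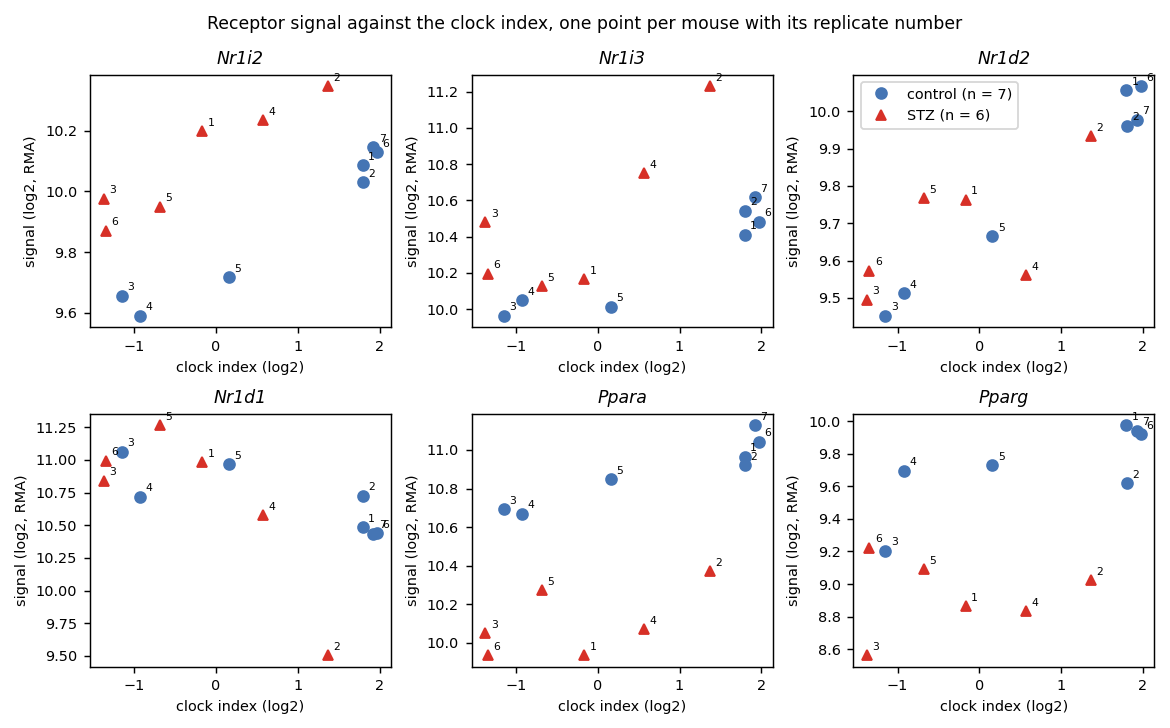
Log2 signal (vertical axes) of 6 receptors against the clock index (horizontal axes, log2), with a circle for each of 7 control mice, a triangle for each of 6 STZ mice and the replicate number beside it. Ppara lies lower in every STZ mouse along the index, Pparg in all but STZ replicate 6 (9.22, beside 9.21 in control replicate 3), Nr1i2 lies higher in STZ mice at low index values, and Nr1d2 runs from 9.45 in control replicate 3 to 10.07 in control replicate 6.

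Coregulators, known target genes and clock genes were described in 10 lists, which share members with each other, and no test ties a list to its receptor. Counts are given beside the 9.12% of all genes that passed, 5.09% higher and 4.04% lower, and list medians beside -0.01 over all genes. The lists were chosen with earlier results of these data known, so a share above that of all genes is no test of a list. That share is also not matched for signal, where for example 21 of 22 CAR and PXR targets lay above the median gene. Of 22 measured coregulators, only Ppargc1a rose, the PGC-1alpha coactivator of fasting, by 0.91 ± 0.17 (adjusted p = 0.00291 in limma), and none fell. The corepressor enzyme gene Hdac3 (-0.18 ± 0.06) narrowly did not pass (0.0526) and passed without control replicate 3 or STZ replicate 3 or 5. The median over the list was 0.06.

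PPARalpha targets split, with 3 of 24 higher and 7 lower and a median of -0.02. The lipid droplet gene Cidec (-1.34 ± 0.18), the fatty acid binding protein Fabp1 (-1.31 ± 0.25), the thiolase Acaa1b (-1.24 ± 0.17) and the peroxisome factor Pex11a (-1.17 ± 0.13) fell, whereas the omega-hydroxylases Cyp4a14 (1.13 ± 0.28), Cyp4a31 (1.12 ± 0.13) and Cyp4a10 (0.76 ± 0.12), close paralogs that probes may not separate, rose. No STZ mouse lay outside the control range in the mean of the list. Without STZ replicate 1 the lower count was 4, as Plin2, Slc25a20 and Creb3l3 no longer passed. CAR and PXR targets were higher for 10 of 22 and lower for 1, with a median of 0.25, and the list mean of all 6 STZ mice exceeded every control. Cyp2b10 (3.83 ± 0.30), the classic CAR target, Slco1a4 (1.89 ± 0.20), the glutathione transferase Gstm3 (0.88 ± 0.11) and Cyp2c37 (0.87 ± 0.09) rose most. The esterase Ces2a (-0.48 ± 0.12) fell, a call lost without STZ replicate 4 (adjusted p = 0.0541 in limma).

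FXR targets, a list that includes Nr0b2, were higher for 4 of 11 and lower for none, with a median of 0.12, while Nr1h4 itself was lower. The bile acid exporter subunit Slc51b (1.22 ± 0.15), the proteoglycan Sdc1 (0.69 ± 0.10), Osgin1 (0.67 ± 0.15) and the phospholipid exporter Abcb4 (0.38 ± 0.08) rose. LXR targets were higher for 3 of 17 and lower for 7, with a median of -0.01. The phospholipid transfer protein Pltp (-1.94 ± 0.15) and the lipogenic genes Fasn (-1.30 ± 0.24) and Scd1 (-0.79 ± 0.16) fell, and lipoprotein lipase Lpl (0.83 ± 0.21) and the sterol exporter Abcg5 (0.69 ± 0.19) rose. Without STZ replicate 1 or 4, the LXR count was 6, all of them lower. The Abcg5 call was also lost without control replicate 3, 4 or 5 or STZ replicate 2. STZ replicates 5 (10.61) and 6 (10.60) lay within the control range of Abcg5. Lpl did not pass with the replicate block (adjusted p = 0.109 in limma), and neither gene passed with trend and robust variance or in the permutation test.

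Glucocorticoid receptor targets were higher for 8 of 19 and lower for 1, with a median of 0.37, beside the lower signal of Nr3c1. The metallothioneins Mt2 (3.81 ± 0.26) and Mt1 (3.05 ± 0.32), Lcn2 (3.21 ± 0.40) and Igfbp1 (2.51 ± 0.34) rose most, all of which respond to further signals besides glucocorticoids. The chaperone gene Fkbp5 (0.74 ± 0.22) and the kinase Sgk1 (0.90 ± 0.18) rose too, and the repressor Bcl6 (-1.37 ± 0.33) fell. The Fkbp5 call was lost without any single array other than control replicate 1 or STZ replicate 5 or 6. Zbtb16 (0.40), Per1 (0.37), Tsc22d3 (0.19), Tat (0.19) and Tdo2 (0.13) did not pass (adjusted p = 0.0572 to 0.706 in limma). With the clock index, Zbtb16, Per1 and Tdo2 were called higher. The gluconeogenic genes of the list differed in direction. Pck1 was above all controls in every STZ mouse except replicate 5. G6pc was -0.37 and did not pass (adjusted p = 0.103 in limma), but was called lower with the clock index (-0.50, 0.0203). Thyroid hormone receptor targets were lower for 5 of 12 and higher for 1, with a median of -0.35. The deiodinase Dio1 (-2.73 ± 0.40), Thrsp (-2.36 ± 0.33) and malic enzyme Me1 (-1.95 ± 0.29) fell, and the list mean of all 6 STZ mice lay under every control.

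HNF4alpha targets were lower for 3 of 13 and higher for none, at a median of -0.11. Pyruvate kinase Pklr (-1.20 ± 0.23), the lipoprotein assembly gene Mttp (-0.31 ± 0.08) and transthyretin Ttr (-0.18 ± 0.05) fell, and the Ttr call was lost without any single array other than STZ replicate 3 or 5. Of 9 retinoic acid receptor targets, Rarb among them, Cyp26a1, which degrades retinoic acid (1.26 ± 0.33), and transglutaminase Tgm2 (0.51 ± 0.12) rose and Lrat, which stores retinol as esters (-0.47 ± 0.08), fell. Cyp26a1 did not pass without STZ replicate 4 (adjusted p = 0.0593 in limma) or STZ replicate 6 (0.0524). With the clock index (0.0519), Per3 (0.0508) or Arntl (0.0525) as covariate it did not pass either. It was also lost with trend and robust variance (0.0758), with STZ replicates 1 to 4 alone (0.0653) and in the permutation test. Tgm2 did not pass with the replicate block (0.0595) or with Arntl as covariate (0.0808). The clock list of 18 measured genes includes Elovl3, a fatty acid elongase gene and not a core clock gene. In that list Elovl3 (-4.50 ± 0.81) and Bhlhe40 (-0.56 ± 0.14) fell and none rose, a share near that of all genes. Without control replicate 3, 4 were lower, and without STZ replicate 4 or 6, Elovl3 alone was. The list median was -0.35. Elovl3 lay between 10.95 and 12.46 in controls. In STZ livers it was 11.575 in replicate 5, within the control range, and between 4.68 and 8.26 in the others. With the clock index in the fit the list median was 0.00. Dbp, Per2, Per3, Arntl and Clock form the index and belong to the list, so this shift is partly built in. In that fit Per1 (1.05), Ciart (0.83), Usp2 (0.49), Nampt (0.43) and Cry2 (0.30) passed as higher, and Elovl3 and Clock as lower. Arntl was 0.90 ± 0.39 (adjusted p = 0.192 in limma) without the index.

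**Figure D5:**
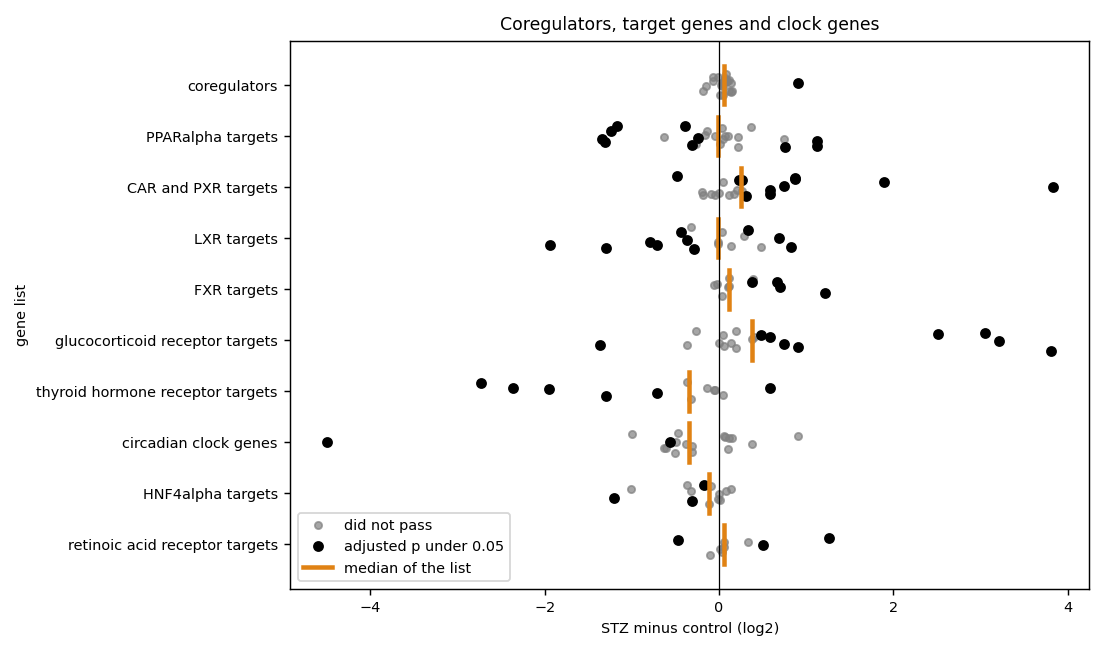
Difference between STZ and control livers (horizontal axis, log2) for each measured gene of 10 lists (vertical axis), in black where the adjusted p was under 0.05 and in grey where it was not, with a bar at the list median. CAR and PXR targets extend to 3.83 (Cyp2b10) and the clock list to -4.50 (Elovl3), while the coregulators cluster near 0 apart from Ppargc1a.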

How the data were processed

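Liver RNA of 13 mice, 7 control and 6 STZ, was hybridised to 1 Affymetrix mouse gene array each. The deposited values are log2 signals of 35556 probe sets, and the submitters' processing notes name RMA and Expression Console 1.2. RMA corrects background and brings arrays to 1 distribution, so an overall change in RNA per cell would not be seen. No annotation version or genome build was found for the arrays.

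The platform annotation gave 1 gene symbol to 21789 probe sets, several to 1621, and did not list 12146. Where a gene had several, its brightest probe set was used, which left 19938 genes. The groups were compared in R 4.3.3 with limma 3.58.1 (lmFit, eBayes, 2-sided), with Benjamini-Hochberg adjustment over all genes, a threshold of 0.05 and 11 residual degrees of freedom before moderation. Intervals are 95% intervals of that fit. The labels call the samples biological replicates, and the number of arrays limits the precision.

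Members and lists were chosen with earlier results of these data known. Full values are given for receptors that passed and bright ones, the 3 closest below the threshold, and up to 4 passing genes per list. Hdac3, Arntl, Abcg5, Bcl6, Fkbp5, Sgk1, Pck1, G6pc, Cyp4a14, Cyp4a31, Cyp4a10, Ces2a, Plin2, Slc25a20 and Creb3l3, and the genes given in the clock fits, were added after their values were seen. So were Zbtb16, Per1, Tsc22d3, Tat and Tdo2. The fit was tested on simulated arrays with known changes. Alternatives were a filter on dim genes, the mean of all probe sets, trend and robust variance, median centring, an exact permutation test, a replicate block, STZ replicates 1 to 4 alone, and leaving out each array. Clock covariates were chosen after seeing the data.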

Additional observations from a re-analysis of the deposited data

Results flagged for a closer look

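Within a group, 4 receptor values stood apart from the rest by Dixon's gap ratio, out of 88 pairs of gene and group examined, where chance alone flags about 1 in 20 (4.4 of 88). Nr1h3 in STZ replicate 2 was 9.66, below the next value of 9.90. Nr5a2 in STZ replicate 1 was 9.80, above the next at 9.66. Nr0b2 in control replicate 7 was 8.53 (8.525), below the next at 9.44. Vdr in STZ replicate 6 was 5.42, above the next at 5.14.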

How the results depend on the processing

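Ppara, Pparg, Nr1h4, Nr2c1 and Esr1 kept their direction and passed in all 23 alternative fits, and Nr3c2 in 22, missing in the exact permutation test (adjusted p = 0.0531). Nr3c1 passed in 11 of 23 (adjusted p = 0.00490 to 0.0959) and Nr4a1 in 14 of 22 (0.00521 to 0.0851). All 44 receptors had 1 probe set, so the fit on the mean of all probe sets left their values unchanged and adds little to these counts. The number of receptors that passed ran from 6 to 9 when single arrays were left out. Same-numbered replicates did not deviate together in every pair (correlations -0.09 to 0.19), and with the replicate block 6 receptors passed, 1256 genes in all against 1819, without Nr3c1 (-0.23) and Nr4a1 (0.48). Leaving out single arrays gave 1 to 2 coregulators, 6 to 11 LXR targets and 1 to 4 genes of the clock list. Coregulators numbered 2 with only genes above the median signal, with trend and robust variance, in the exact permutation test, with STZ replicates 1 to 4, and with Arntl as covariate. The permutation test called 6 LXR targets and 1 gene of the clock list. The replicate block called 1 gene of the clock list and 1 HNF4alpha target, and STZ replicates 1 to 4 gave 1 and 5. With the clock index, Per3 or Arntl as covariate, 7, 5 and 7 genes of the clock list passed. Of these, 5, 4 and 5 were higher, where none had been. In each of these fits 5 HNF4alpha targets passed, all lower. Receptors that had not passed could change sign, such as Nr1d2, from -0.13 to 0.04 with the index. With Arntl, 1 retinoic acid receptor target passed (Lrat, lower). The cause of these shifts was not tested. The clock covariates were added after seeing the data, and they are formed from genes of the clock list. Dim receptors near background limit what can be seen.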
